A study of Mus musculus with 24 samples.

Results

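The genes of respiratory complex I were followed here in mouse thymocytes exposed to low and high doses of radiation. They were taken as the named genes whose symbols begin with Ndufa, Ndufb, Ndufc, Ndufs or Ndufv, with the assembly factors (Ndufaf) shown apart, and each gene was represented by its probe with the highest mean Cy5 signal. The rule found 38 genes, with 44 probes, among the 21159 named genes of the array. Of these, 36 encode subunits of the mature complex, and the other two, Ndufa4 and Ndufa4l2, share the name without being assigned to it. The symbol rule also gave 8 Ndufaf genes. In Cy5, the thymocyte channel, 37 of the 38 genes were well above background on all 24 arrays, and Ndufa4l2 was so on 22.

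Thymocytes came from male and female C57BL/6J mice aged 4 to 5 weeks, and 3 mice of each sex stood in each of 4 groups, with 1 array per mouse. Control mice were not irradiated. Low dose mice received 0.075 Gy of X-rays, high dose mice 1.75 Gy of γ-rays, and mice of the adaptive regimen (RAR) 0.075 Gy of X-rays followed after 6 h by 1.75 Gy of γ-rays. The time from the last dose to the collection of the thymus is not given in the sources used here, and thymocytes were obtained by straining the dispersed thymus, without a sort for a cell type. Every value is a log2 ratio of Cy5 over Cy3, in which Cy3 is a common reference of pooled mouse RNA, so that a value below 0 means less signal from thymocytes than from the reference. All changes below are differences between such ratios. In bulk RNA of this kind, fewer cells of a type and less of a transcript per cell cannot be told apart.

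Complex I is the entry point of the mitochondrial respiratory chain, where electrons from NADH pass through a flavin and a row of iron–sulfur clusters to ubiquinone while protons are pumped across the inner membrane. Its peripheral arm, which projects into the matrix, carries the cofactors, and its membrane arm carries the pumps. The nuclear genome encodes the Nduf subunits and the mitochondrial genome the core of the membrane arm, whose genes had no named probe and were not analysed here. In lymphocytes the complex supports ATP production and is a site of superoxide formation, and during apoptosis caspases cleave its subunit Ndufs1.

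The sequence around the transcription starts of the members is shown first, as a description. Whether the motifs bear on the changes was not tested. RefSeq windows of the build GRCm38.p6, from 250 bases before to 50 bases after each start, were held for 33 of the 38 members and searched on both strands for 3 motifs of factors linked to respiratory genes. The YY1 motif AAGATGGC occurred in 7 of the 33 (21.2%), against 3.19% of all 27025 genes with a window. The NRF1 motif GCATGCGC occurred in 3 (9.09%, against 3.05%) and the ETS motif CCGGAAG in 4 (12.1%, against 9.93%). No 2 different motifs overlapped in the sites printed here, but the match of Ndufa11 is 1 of a pair of NRF1 matches on opposite strands that overlap. All 7 YY1 matches of members lay on the strand of the gene, with their first base 23 to 39 bases after the start. These sites are printed to show that placement, in windows of 30 bases with the motif in capitals.
Ndufs7 (chr10:80249462-80249491, + strand): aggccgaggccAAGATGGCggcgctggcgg
Ndufs4 (chr13:114388045-114388074, - strand): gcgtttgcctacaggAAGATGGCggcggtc
Ndufs6 (chr13:73328433-73328462, - strand): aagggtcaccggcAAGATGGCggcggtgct
Ndufa9 (chr6:126849097-126849126, - strand): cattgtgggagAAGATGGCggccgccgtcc
Ndufa3 (chr7:3617384-3617413, + strand): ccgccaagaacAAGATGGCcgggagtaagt
Ndufb8 (chr19:44555393-44555422, - strand): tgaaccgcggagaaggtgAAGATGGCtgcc
Ndufc1 (chr3:51408915-51408944, - strand): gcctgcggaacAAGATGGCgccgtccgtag

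The other sites are printed for members on which the results below turn. Ndufs8 held an ETS match on the opposite strand 16 bases after its start, Ndufa11 an NRF1 match 58 bases before it, and Ndufa6 an NRF1 match 83 bases before it.
Ndufs8 (chr19:3912741-3912770, - strand): ttaggctccgcCTTCCGGttgaaccgcatc
Ndufa11 (chr17:56717693-56717722, + strand): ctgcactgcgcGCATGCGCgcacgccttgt
Ndufa6 (chr15:82354356-82354385, - strand): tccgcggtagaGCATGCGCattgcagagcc

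Ndufab1, which had the largest fall of the members in 5 of the 6 comparisons with control, held none of these letters in its window. Its 250 bases before the start are printed for comparison with those of Ndufa6, which was not called lower against control in any comparison.
Ndufab1 (chr7:122101849-122102098, - strand): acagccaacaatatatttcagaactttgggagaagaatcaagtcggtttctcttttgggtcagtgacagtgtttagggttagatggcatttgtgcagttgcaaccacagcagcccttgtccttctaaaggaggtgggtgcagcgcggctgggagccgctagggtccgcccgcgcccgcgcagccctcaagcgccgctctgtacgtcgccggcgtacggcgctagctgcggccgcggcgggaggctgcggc
Ndufa6 (chr15:82354292-82354541, - strand): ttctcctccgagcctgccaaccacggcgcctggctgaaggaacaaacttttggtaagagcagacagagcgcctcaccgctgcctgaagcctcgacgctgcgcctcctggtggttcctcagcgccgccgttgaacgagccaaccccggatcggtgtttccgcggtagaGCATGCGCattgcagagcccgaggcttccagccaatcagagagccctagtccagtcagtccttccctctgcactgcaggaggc
The changes of members with and without the YY1 letters are given as a description. In RAR females the medians were -0.50 for the 7 with the motif and -0.49 for the 26 without, and in RAR males they were -0.70 and -0.57.

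Complex I genes were lower in both sexes after every treatment, and none was called higher, except 1 gene after the high dose in females when normexp and loess replaced the authors' normalization. The median of the 38 genes on an array lay between -0.25 and -0.07 on the 6 control arrays, and between -0.76 and -0.45 on the 18 irradiated arrays, so that these did not overlap. The 10055 named genes that were well above background on all arrays had medians of 0.19 to 0.22 on control arrays and of -0.02 to 0.17 on irradiated arrays. These did not overlap either, so that the separation is not particular to complex I. Falls were called with limma at an adjusted p under 0.05, and past the threshold of the methods where they also reached 1.5-fold. Shares at 1.5-fold and of non-overlapping values are given below over all probes only, which include dim ones. Whether complex I genes exceeded bright genes in these 2 measures was not tested.

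**Figure D1:**
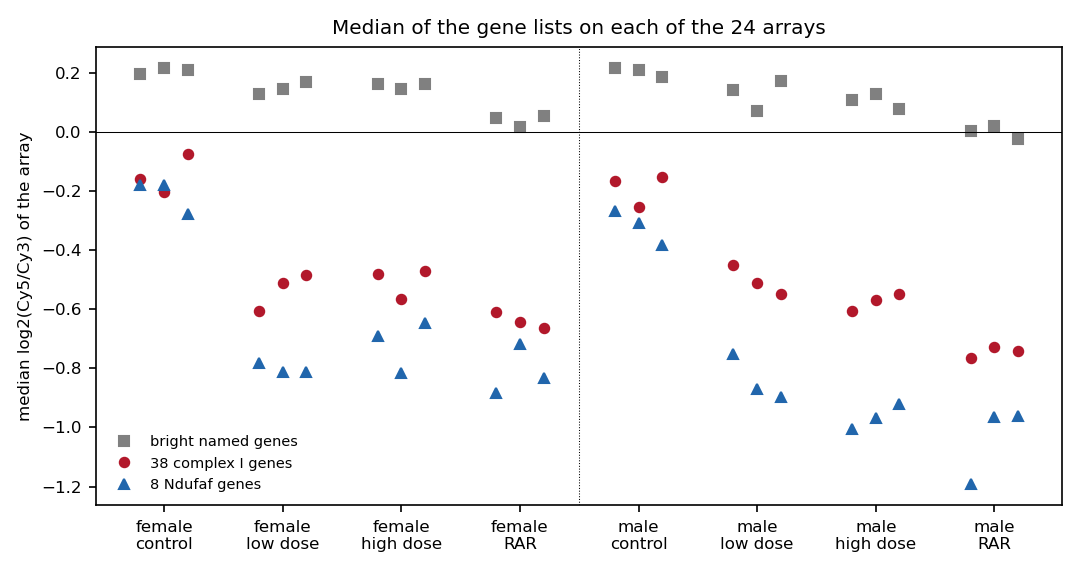
Median log2 ratio of Cy5 over Cy3 on each of the 24 arrays for the 38 complex I genes (red circles), the 8 Ndufaf genes (blue triangles) and the 10055 bright named genes (grey squares), by sex and treatment. The medians of all 18 irradiated arrays lie below those of the 6 control arrays for the complex I genes and also for the bright named genes.

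After the low dose in females, 25 of the 38 genes fell and 0 rose, with a median change of -0.32 against -0.04 over all probes. The called share was 8.08% of all probes in the lower direction and 20.3% of the bright named genes. Of the 25, 5 fell by at least 1.5-fold (4.0% of all probes): Ndufab1, Ndufb2, Ndufs8, Ndufa12 and Ndufc1. In males the low dose lowered 13 genes and raised 0, with a median of -0.23 (6.65% of all probes and 16.0% of bright genes lower), and 2 of them, Ndufab1 and Ndufa12, passed 1.5-fold (3.44%). Values did not overlap between low dose and control for 34 genes in females (17.2% of all probes) and 30 in males (15.3%). The counts shrank to 9 and 2 with quantile normalization, and to 8 and 0 when the fit used only the arrays compared.

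After the high dose, 23 genes fell in females and 26 in males, and 0 rose in either sex. The medians were -0.31 and -0.36, and 7.49% and 9.85% of all probes were called lower, or 19.1% and 24.1% of the bright genes. At least 1.5-fold falls numbered 4 in females (3.63% of all probes) and 5 in males (5.33%), and Ndufab1, Ndufs8 and Ndufa12 were among them in both sexes. Groups did not overlap for 34 genes in each sex (16.8% and 18.8% of all probes), and Ndufa6 alone was non-overlapping in the upward direction, in females. Counts were 10 and 5 with quantile normalization, and 7 and 22 with the slide as a block. All 3 female control arrays were on another slide than the 3 female high dose arrays, so that slide and treatment cannot be told apart within that comparison.

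RAR thymocytes had the lowest complex I levels. In females 33 genes fell, with a median of -0.46, and 13 fell by at least 1.5-fold. In males 34 fell, with a median of -0.57, and 17 fell by at least 1.5-fold. The called shares were 16.3% and 18.5% of all probes, 39.1% and 41.7% of bright genes, and at 1.5-fold 10.8% and 13.3% of all probes. Non-overlapping falls numbered 34 and 36 (21.7% and 23.9% of all probes). With quantile normalization 26 and 21 genes were called, and with the slide as a block 23 and 28. The 2 female RAR arrays with the highest and lowest share of spots well above background (71.8% and 34.7%, where the other 22 arrays lay between) were both in a group of 3. Without both, a choice made after the data were seen, 1 female RAR array remained, its spread was taken to equal that of the other groups, and 12 genes passed 1.5-fold. No female control array shared a slide with a female RAR array.

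**Figure D2:**
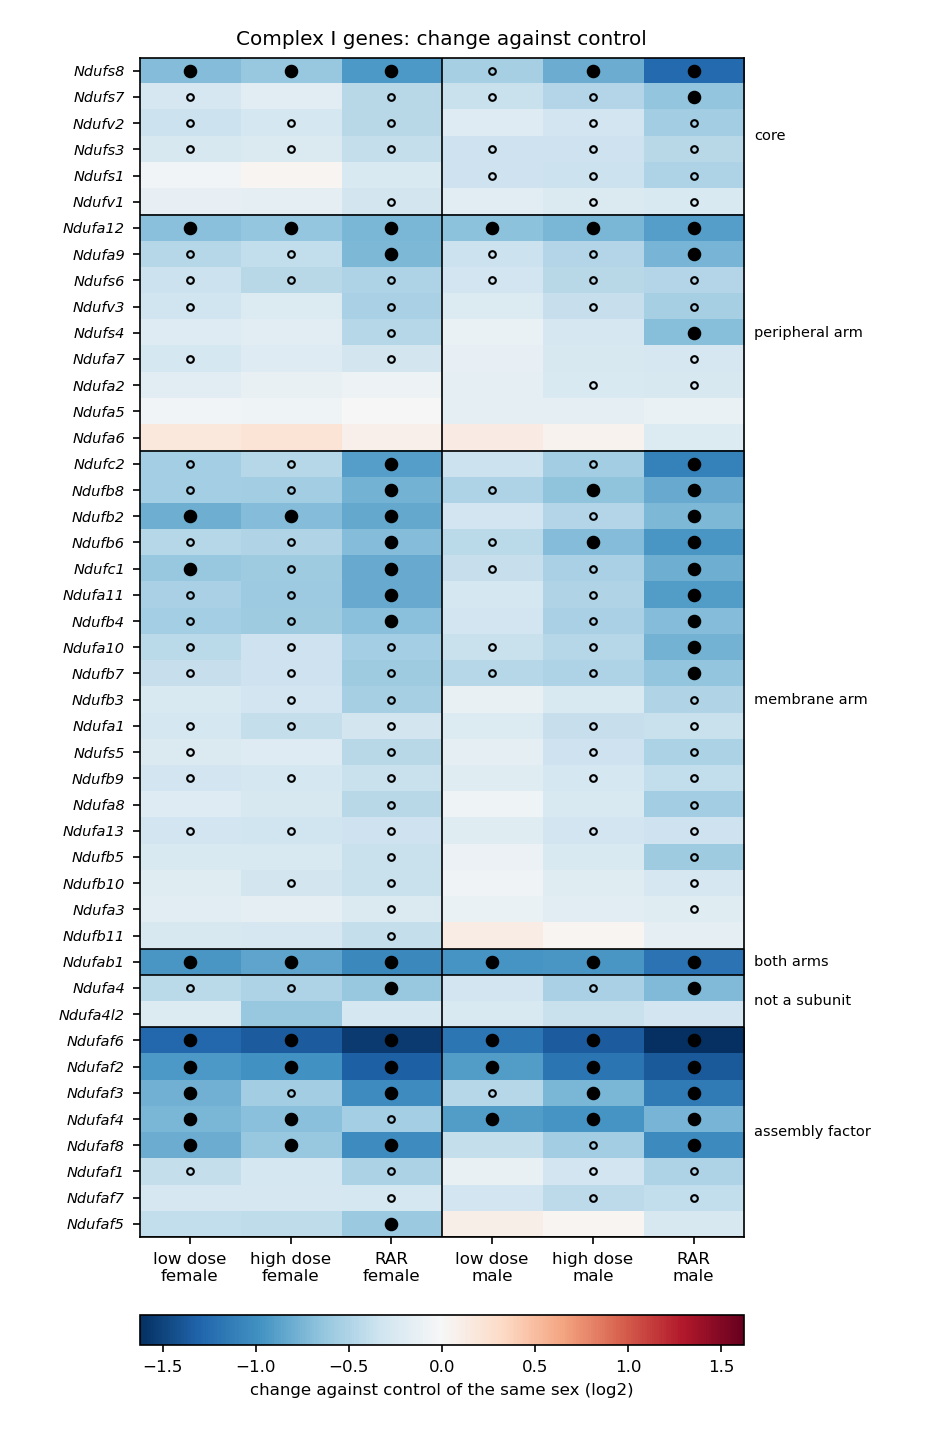
Change of 37 of the 38 complex I genes and of each Ndufaf gene (rows) against control of the same sex in log2 units (colour, blue for lower) after each treatment (columns). Open circles mark falls with an adjusted p under 0.05 and filled circles those that also reached 1.5-fold; 11 of the 38 genes fell in all 6 comparisons and 3 (Ndufa4l2, Ndufa5 and Ndufa6) in none.

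The core of the peripheral arm, 7 subunits that bind the flavin and iron–sulfur clusters or line the quinone site, fell by unequal amounts. Ndufs8, which carries iron–sulfur clusters on the way to the quinone site, fell most of them in RAR. Its log2 ratios were -0.40, -0.45 and -0.20 in female controls, -1.09, -0.99 and -1.06 after the low dose, -0.92, -1.07 and -0.90 after the high dose and -1.24, -1.32 and -1.27 in RAR. In males they were -0.29, -0.47 and -0.36 in controls, -0.73, -0.92 and -1.11 after the low dose, -1.21, -1.25 and -1.08 after the high dose and -1.75, -1.46 and -1.70 in RAR. Each treated group lay wholly below control, and RAR males lay below every other array. Against control, Ndufs8 in RAR was at 52.6% of its level in females (change -0.93 ± 0.11, standard error, adjusted p = 3.64e-06) and at 41.8% in males (-1.26 ± 0.11, adjusted p = 8.17e-08).

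Ndufs1, the largest core subunit and the one that caspases cleave, was not called after either dose alone in females. Its values were -0.21, -0.24 and -0.28 in female controls, -0.28, -0.29 and -0.29 after the low dose and -0.14, -0.27 and -0.22 after the high dose. RAR females, at -0.54, -0.50 and -0.44, lay below all of these, with a change of -0.25 that missed the threshold (adjusted p = 0.054). In males the controls were at 0.06, -0.03 and -0.16, low dose arrays at -0.38, -0.58 and -0.20, high dose arrays at -0.33, -0.41 and -0.46 and RAR arrays at -0.64, -0.48 and -0.54, without overlap with control. Male Ndufs1 fell after the low dose (-0.34, adjusted p = 0.026), the high dose (-0.35, adjusted p = 0.013) and RAR (-0.51, adjusted p = 0.00032). The difference between the sexes was not called: its interaction with treatment had no adjusted p under 0.05, and male controls stood above female controls.

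Of the other core subunits, Ndufs7, which lies at the quinone site, fell in RAR to 72.9% of control in females and to 63.9% in males. Ndufs3 fell in all 6 comparisons, by 0.23 to 0.46 on the log2 scale. Ndufv2, with an iron–sulfur cluster at the NADH end, fell in 5 of 6, and Ndufv1, which binds NADH and the flavin, in 3, by at most 0.30.

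Among the 9 further subunits of the peripheral arm, Ndufa12 passed 1.5-fold most often. It is a paralogue of the assembly factor Ndufaf2, whose place it takes late in assembly. Its values were -0.81, -0.91 and -0.79 in female controls and -0.77, -0.84 and -0.81 in male controls, and the 18 irradiated arrays lay between -1.77 and -1.33. It fell by at least 1.5-fold in all 6 comparisons, and its change was nearly as large after the low dose (-0.67 in both sexes) as in RAR (-0.74 in females and -0.89 in males). Ndufa9, which lies beside the quinone site, fell in all 6 comparisons and reached -0.72 and -0.75 in RAR. Ndufs4, a late-added subunit, fell only in RAR among the comparisons with control, by 0.46 in females and 0.70 in males.

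Ndufa6, a member of the LYR protein family that binds the acyl carrier protein Ndufab1, was not called against control, and is described here because its values were seen to differ from the rest. Its values were -0.95, -1.03 and -1.14 in female controls, -0.79, -0.88 and -0.95 after the low dose and -0.82, -0.76 and -0.87 after the high dose. These are changes of 0.17 and 0.22, neither past the test (adjusted p = 0.35 and 0.17). RAR females were at -0.91, -0.86 and -1.09, overlapping control. Male controls were at -0.86, -0.86 and -0.73 and RAR males at -1.11, -1.02 and -0.98, wholly below them. In males the changes were 0.13, 0.05 and -0.22 for low dose, high dose and RAR, with no adjusted p under 0.05, but RAR males lay below low dose males by 0.35 (adjusted p = 0.021). Ndufa5 also passed no test with its brightest probe, with changes of -0.15 to -0.01. A second Ndufa5 probe fell in all 6 comparisons, by 0.29 to 0.61, so that the 2 probes of this gene disagree. The second probes of Ndufb4, Ndufb5, Ndufb6 and Ndufv3 were called lower in RAR of both sexes, as were the first.

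The acyl carrier protein Ndufab1, which stands in both arms and also serves mitochondrial fatty acid synthesis, had a step between control and every irradiated group. Its values were 0.34, 0.52 and 0.41 in female controls and 0.39, 0.06 and 0.43 in male controls. After the low dose they were -0.78, -0.50 and -0.26 in females and -0.65, -0.83 and -0.53 in males, and after the high dose -0.35, -0.58 and -0.35 in females and -0.60, -0.59 and -0.75 in males. In RAR they reached -0.64, -0.51 and -0.70 in females and -0.84, -0.82 and -1.06 in males. The 0.075 Gy dose alone left 52.1% of the control level in females (adjusted p = 0.000118) and 51.3% in males (adjusted p = 0.000126). Levels in RAR were 48.5% and 43.5% of control, and RAR was not called against the low dose (-0.10, adjusted p = 0.75, in females and -0.24, adjusted p = 0.28, in males).

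**Figure D3:**
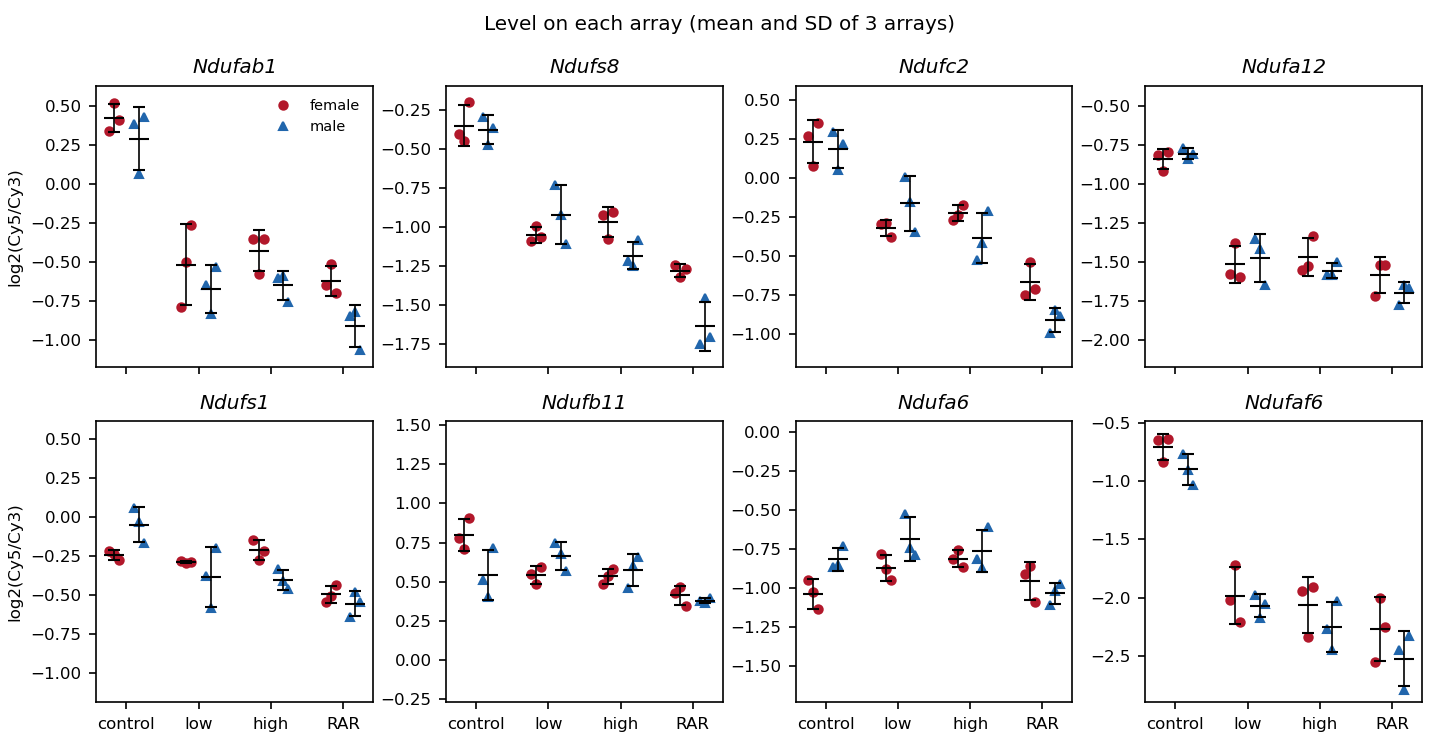
Log2 ratio of Cy5 over Cy3 on each array for 7 complex I genes and the assembly factor Ndufaf6, by treatment, in females (red circles) and males (blue triangles), with the mean and SD of 3 arrays in black. Ndufab1, Ndufs8 and Ndufaf6 step down from control in every irradiated group, while Ndufa6 and Ndufb11 overlap control in several.

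The membrane arm held 19 members, and all 19 fell in RAR females and 18 in RAR males, with Ndufb11 the exception. Of all probes 16.3% and 18.5% were called lower there, and the bright-gene shares given above were higher. Ndufc2 rested at 0.27, 0.08 and 0.35 in female controls and 0.29, 0.05 and 0.22 in male controls, and was at -0.75, -0.53 and -0.71 in RAR females and -0.99, -0.85 and -0.89 in RAR males. After the low and the high dose, Ndufc2 lay between these levels, at -0.38 to -0.29 and -0.27 to -0.17 in females and at -0.34 to 0.01 and -0.52 to -0.21 in males. In RAR it was at 53.7% and 46.8% of control (adjusted p = 6.84e-06 and 5.26e-07). Ndufb6, Ndufb8 and Ndufa11, subunits buried in or resting on the membrane arm, fell in RAR by 0.70, 0.76 and 0.82 in females and by 0.94, 0.81 and 0.91 in males. Ndufb2 fell in females after the low dose to 57.5% of control (adjusted p = 5.05e-05), while in males its change of -0.31 missed the threshold (adjusted p = 0.069). The sex difference of that change was 0.49 with an adjusted p of 0.706.

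Ndufa1 and Ndufb11 are the members encoded on the X chromosome. Ndufa1 fell in 5 of 6 comparisons, by 0.28 to 0.39, and its low dose change in males was -0.22 (adjusted p = 0.11). Ndufb11 fell only in RAR females, by 0.39 (adjusted p = 0.0033), and its changes in males were 0.12, 0.03 and -0.16, with no adjusted p under 0.05. A second Ndufb11 probe fell in RAR of both sexes, by 1.06 and 1.11, so that its probes disagree in males. Ndufa13, known as GRIM-19 for its part in cell death, fell by 0.31 to 0.34 in 5 of the comparisons and changed by -0.20 in low dose males (adjusted p = 0.099). Ndufa4, now assigned to complex IV, fell in 5 of 6 comparisons and reached -0.62 and -0.72 in RAR. Ndufa4l2, its hypoxia-responsive relative, passed no test, with a standard error of 0.29 that exceeds those of the other members.

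The question of what the priming dose adds was addressed by RAR against the high dose. RAR against the low dose, given after it, addressed instead what the later high dose adds. Against the high dose, 5 genes were lower in RAR females (median -0.16, 6.55% of all probes) and 8 in RAR males (median -0.18, 5.94%), and 0 by 1.5-fold (3.28% and 2.77% of all probes). In every comparison with control, the share of bright genes called lower was above that of all probes. The bright-gene share is not given for RAR against either single dose. Whether complex I genes were called more often than bright genes was therefore not tested there. Ndufc2 was called in both sexes, and was lower by 0.44 in females (adjusted p = 0.015) and 0.53 in males (adjusted p = 0.0056). Its RAR values, given above, lay wholly below those of the high dose in each sex. In males Ndufs8 was lower by 0.45 (adjusted p = 0.012), Ndufs4 by 0.43 (adjusted p = 0.0084) and Ndufa11 by 0.42 (adjusted p = 0.011). These counts depended on single arrays and on the processing: the 5 in females became 0 without female high dose 3 or female RAR 3, 2 without female high dose 1 and 3 without female high dose 2 or female RAR 2, and the 8 in males became 3 without male RAR 1 and 5 without male high dose 2. They were 2 and 0 with quantile normalization, 1 and 8 with the slide as a block, 11 and 15 with dim probes left out and 0 and 0 with only the arrays compared.

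Against the low dose, 22 genes were lower in RAR males, with a median of -0.32, 9.59% of all probes called and 4 genes past 1.5-fold (4.80%): Ndufc2, Ndufs8, Ndufa11 and Ndufs4. In females no gene was called by limma (median -0.15, 3.89% of all probes, and 1.86% at 1.5-fold), although 16 had an unadjusted p under 0.05. The 0 in females became 10 with dim probes left out, 18 with Cy5 alone, 4 with values over 1 log2 unit from the others left out, and 1 with normexp or with median centring. The 22 in males became 3 with quantile normalization, 14 with the slide as a block and 0 with the fit on only the arrays compared, which also left 0 past 1.5-fold. Whether the sexes differ in this comparison was not tested. High dose against low dose, a comparison chosen after the values were seen, called 0 genes in either sex (0% of all probes in females and 0.00180% in males), with 0 and 3 genes at an unadjusted p under 0.05. The medians were 0.03 and -0.12, and that of females turned to -0.04 with median centring or Cy5 alone. For the median gene the 95% interval of that difference, not adjusted for the number of probes, reached 0.19 to either side on the log2 scale. Smaller differences were not detectable with 3 arrays per group, and larger ones could also go uncalled. In males Ndufb6 differed by -0.26 (limma, adjusted p = 0.53).

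No sex difference of a complex I gene was called in the fit reported here, and up to 4 were called under other settings. The changes against control of the 38 genes in females, set against those in males, which share no array, had a Pearson correlation of 0.78 for the low dose, 0.78 for the high dose and 0.91 for RAR, as a description over genes measured on the same probes. Of the genes that fell in RAR, 33 in females and 34 in males, 32 did so in both sexes. With so many of the 38 called in each sex, a large overlap was bound to follow. The fall was larger in males for 29 of the 38 genes in RAR, for 25 after the high dose and for 9 after the low dose. Between RAR males and RAR females 0 genes differed (0.453% of all probes were called), the median difference was -0.10, and 7 had an unadjusted p under 0.05, led by Ndufa10 with -0.28 (adjusted p = 0.117). Over the 4 treatments 0 genes differed between males and females (0.706% of all probes), 8 had an unadjusted p under 0.05, and the nearest was Ndufa8, a membrane arm subunit, with -0.18 (adjusted p = 0.070). With dim probes left out, 1 gene was called lower in RAR males than in RAR females and 2 over the 4 treatments, and with values over 1 log2 unit from the others left out 4 and 2; normexp with loess gave 1 over the 4 treatments. With quantile normalization the median difference in RAR turned to 0.07. The interaction of sex and treatment was called for 0 genes and 0.00359% of all probes, and its smallest adjusted p over the members, 0.749, belonged to Ndufb2 and Ndufs8. For the median gene the 95% interval of a sex difference in the change reached 0.27 to either side.

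**Figure D4:**
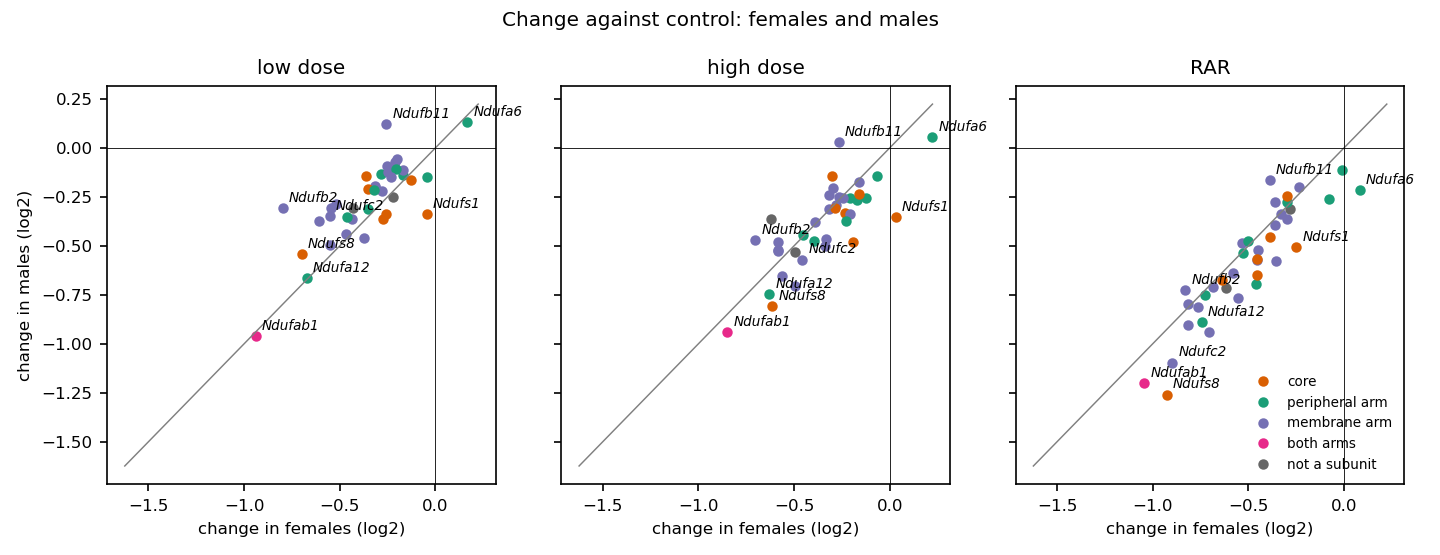
Change of the 38 complex I genes against control in females (x axis) and males (y axis), in log2 units, for low dose, high dose and RAR, coloured by position in the complex; the grey line marks equal changes. The Pearson correlations were 0.78, 0.78 and 0.91. Of the 38 genes, 9 lie below the line after the low dose, 25 after the high dose and 29 in RAR.

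The Ndufaf genes encode factors that build the complex and do not stay in it. All 8 Ndufaf genes fell in RAR females and 7 in RAR males, with medians of -0.81 and -0.90, against 39.1% and 41.7% of bright genes called lower. Ndufaf6 fell most, from -0.65, -0.84 and -0.64 in female controls to -2.55, -2.00 and -2.25 in RAR, and from -0.76, -0.91 and -1.03 in male controls to -2.45, -2.79 and -2.33. That left 33.9% and 32.4% of the control level (adjusted p = 1.9e-06 and 7.7e-07). After the low dose alone it was at 41.4% and 44.5%. Ndufaf2, the paralogue that Ndufa12 replaces, fell to 40.0% and 38.7% in RAR. Ndufaf5, which hydroxylates Ndufs7, fell only in RAR females, by 0.60, and its changes in males were 0.09, 0.04 and -0.26.

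Of 10 further assembly factors, 9 fell and 1 rose in RAR of both sexes. There, 16.3% and 18.5% of all probes were called lower and 11.7% and 13.4% higher, and the bright-gene shares were above these. The largest falls were those of Tmem186, by 1.22 and 1.43, and Tmem126b, by 0.83 and 1.20, both partners of Ndufaf1 in building the membrane arm. The gene that rose was Timmdc1, an assembly factor of the membrane arm, by 1.13 in females and 1.40 in males.

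The other respiratory complexes were set beside complex I and beside the 39.1% (females) and 41.7% (males) of bright genes called lower in RAR. In RAR, 4 of 4 complex II genes fell in each sex (median -0.62 in both), as did 6 and 5 of 9 complex III genes (-0.48 in both), 9 of 18 complex IV genes in each sex (-0.39 and -0.33) and 12 and 11 of 17 ATP synthase genes (-0.44 and -0.42). Genes that rose were Cox6b2, by 1.60 and 2.08, and Cox4i2, by 0.80 and 0.86, tissue-restricted isoforms of complex IV, and Atp5g2, by 0.21 and 0.31. Sdhc and Sdhd, which anchor complex II in the membrane, fell by 0.72 and 0.63 in females and by 0.66 and 0.87 in males, and Uqcrc1, a core protein of complex III, fell by 0.76 and 0.69.

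Among 15 regulators of respiratory genes, 8 fell in RAR females and 9 in RAR males, or 53.3% and 60.0%, against bright-gene shares of 39.1% and 41.7%, and 0 rose. Tfam, which packages and transcribes the mitochondrial genome, fell in all 6 comparisons, by 0.40 to 0.92. Myc fell in all 6 too, with changes of -1.66 to -1.36. Of the factors named with the motifs, Nrf1 fell only in RAR, by 0.34 and 0.29, Yy1 only in RAR, by 0.56 and 0.54, and Gabpa, an ETS factor, by 0.69 and 0.82 in RAR.

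**Figure D5:**
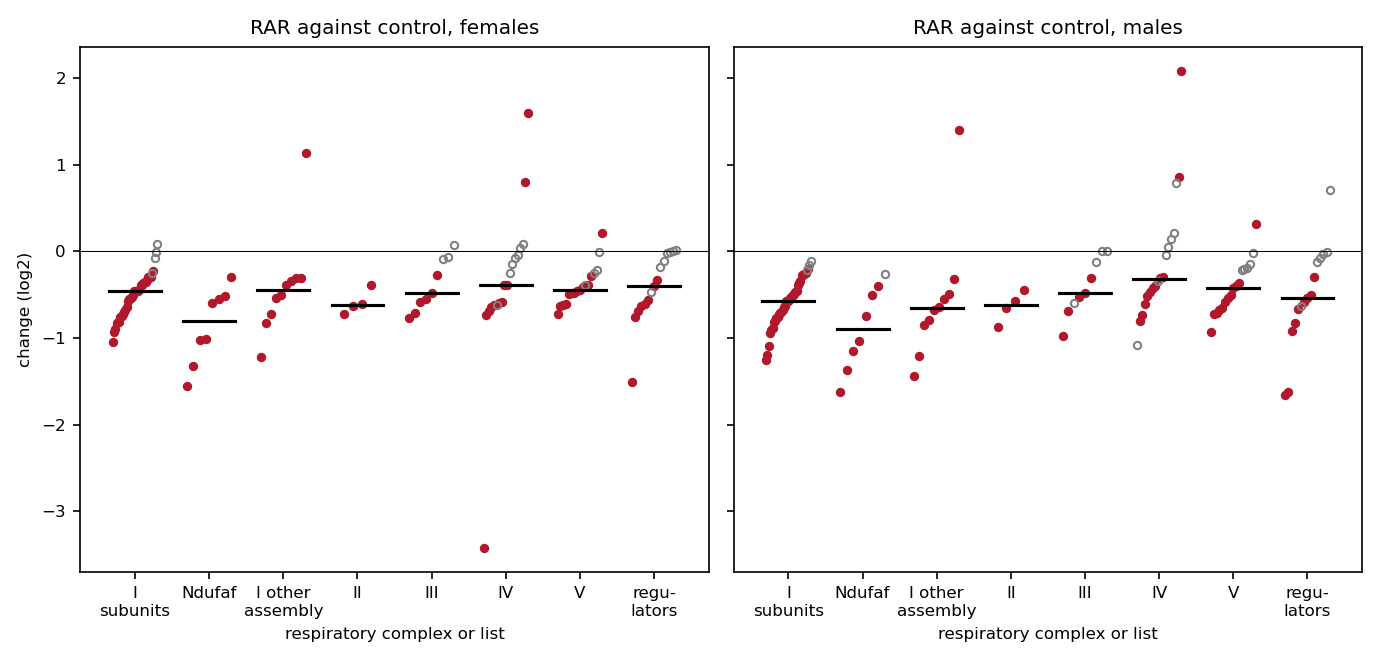
Change in RAR against control, in log2 units, of the 36 complex I subunits, the 8 Ndufaf genes, 10 other complex I assembly factors, complexes II to V and 15 regulators, in females and males. Each point is a gene, filled where its adjusted p is under 0.05, and bars are list medians: -0.46 and -0.57 for complex I subunits and -0.81 and -0.90 for Ndufaf genes.

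Markers of other cells moved with treatment as well. Of 10 myeloid genes, 6 rose in RAR females and 8 in RAR males, where 11.7% and 13.4% of all probes and 22.6% and 25.6% of bright genes were called higher. Their Cy5 signals, summed and divided by the 75th percentile of each array, ran from 103 to 180 in female controls, 177 to 238 after the low dose, 147 to 201 after the high dose and 381 to 399 in RAR, and in males from 113 to 157, 168 to 344, 217 to 304 and 373 to 555. The summed signal of 4 neutrophil genes ran from 28 to 42 in female controls, 73 to 107 after the low dose, 66 to 92 after the high dose and 149 to 207 in RAR, and in males from 20 to 36, 89 to 94, 93 to 123 and 70 to 145. That of 5 T lineage genes ran from 1170 to 1259 in female controls, 859 to 994 after the low dose, 867 to 971 after the high dose and 664 to 831 in RAR, and in males from 1045 to 1121, 893 to 1023, 811 to 920 and 633 to 682. The neutrophil and T lineage sums did not overlap between control and any treatment in either sex. The myeloid sum overlapped control in females after either single dose. The list of 9 double-positive thymocyte genes, with Cd4, Cd8a and Rag1 well above background on all arrays, had 2 higher and 3 lower in RAR females and 4 higher and 1 lower in RAR males. Its summed signal ran from 749 to 857 in female controls and 413 to 544 in RAR, and from 714 to 818 in male controls and 369 to 413 in RAR, while after the low dose it overlapped control in both sexes. Such a sum is weighted by its brightest genes, so that it can fall where more genes of the list were called higher than lower. Of 6 thymic epithelial genes, Psmb11 was called lower in all 6 comparisons but was well above background on only 8 arrays. The summed signal of this list overlapped control in males after every treatment, at 8.94 to 13.6 in RAR against 11.5 to 18.7. In females it overlapped control after the low dose. It lay below the female controls (19.6 to 25.6) after the high dose (12.8 to 13.3) and in RAR (8.06 to 12.2). Of 5 proliferation genes 0 fell after either dose alone, whereas 3 fell in RAR females and 4 in RAR males. Of all probes 16.3% and 18.5% were called lower in RAR, and the bright-gene shares given above were higher. The part of these cells in the complex I result was not tested.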

How the data were processed

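Thymocyte RNA of 24 mice was hybridised in Cy5 against a common Cy3 reference on 2-colour arrays, without dye swap, on 3 slides of 8 arrays. Per the file headers, Feature Extraction 11.5.1.1 gave the scanner intensities, of which the processed and well-above-background columns were used. The authors deposited log2 ratios of Cy5 over Cy3, which lay within 0.01 of those in the scanner files for 100% of values compared on every array. Each array held 62976 spots, of which 183 to 368 were outlier-flagged and 0 saturated in Cy5. The number of arrays limits the precision.

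The 55681 non-control probes were fitted together with limma 3.58.1 (R 4.3.3; lmFit and eBayes, 8 group means), and p-values were adjusted by Benjamini-Hochberg over all of them. A call needed an adjusted p under 0.05, and the threshold of the methods also at least 1.5-fold. Accessions gave names to 28026 of the 28039 named probes. Members named singly were the core, X-linked and non-subunit genes, Ndufab1, Ndufa13 and up to 5 members with the largest called, non-overlapping rise or fall per comparison. Ndufa5 and Ndufa6 were added after their values were seen. So were Ndufa8 and Ndufa10, which had the smallest adjusted p in a comparison of the sexes. Other members were named only for a motif or a second probe. From other lists, at most 2 rises and 2 falls were named, and all regulators and Ndufaf genes were open to naming. The members and lists were chosen with earlier results of these data known. The marker lists were Cd1d1, Cd4, Cd8a, Cd8b1, Dntt, Ptcra, Rag1 and Rag2 among others (double-positive thymocytes), Cd3d, Cd3e, Cd3g, Lck and Thy1 (T lineage), Adgre1, C1qa, C1qb, C1qc, Cd14, Cd68, Csf1r, Fcgr3, Itgam and Lyz2 (myeloid), Camp, Ngp, S100a8 and S100a9 (neutrophils), Ccl25, Epcam, Foxn1, Krt5, Krt8 and Psmb11 (epithelium) and Birc5, Ccnb1, Cdk1, Mki67 and Top2a (proliferation). The scripts were tested on simulated data. Alternatives were quantile normalization, normexp with loess, median centring, Cy5 alone, other thresholds, dim probes left out, values over 1 log2 unit from the others left out, the mean of all probes of a gene, blocks for slide and replicate, fits of only the arrays compared, and each array left out. The values of 1 member and of 1 marker, which stay in the counts, medians and sums, are not reported here. Replicates were 3 individuals per group by the methods.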

Additional observations from a re-analysis of the deposited data

How the results depend on the processing

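Counts here are of complex I genes past the adjusted p and 1.5-fold, in the order low dose, high dose and RAR against control. They were 5, 4 and 13 in females and 2, 5 and 17 in males, with 0 for RAR against either single dose in females, 0 for RAR against high dose in males and 4 for RAR against low dose in males. With no minimum fold they were 25, 23 and 33 in females and 13, 26 and 34 in males, and RAR against high dose gave 5 in females and 8 in males, and RAR against low dose 22 in males. With a log2 change over 1.5 all were 0. With Cy5 alone they were 12, 19 and 33 in females, and in males 16 for the high dose, 31 for RAR, 1 for RAR against high dose and 7 for RAR against low dose; there the median change of all probes was 0.64 in RAR females and 0.33 in RAR males. In males, quantile normalization gave 1, 2 and 9, and 2 for RAR against low dose, normexp with loess gave 11 for RAR and 1 for RAR against low dose, median centring gave 2 for RAR against low dose, and the fit of only the arrays compared gave 0 for low dose and 0 for RAR against low dose. The causes were not tested. The median change of the 38 genes kept its sign in all 6 comparisons with control and in RAR against either single dose under every setting tried. It turned, from values near 0, between RAR males and RAR females (-0.10, and 0.07 with quantile normalization) and between high and low dose in females (0.03, and -0.04 with median centring or Cy5 alone).

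Leaving out each array in turn gave 4 to 9, 3 to 8 and 12 to 15 in females, 1 to 3, 4 to 8 and 17 to 19 in males, 0 to 1 for RAR against high dose and 2 to 4 for RAR against low dose in males. With no minimum fold it gave 18 to 25, 18 to 23 and 31 to 34 in females, 10 to 16, 22 to 26 and 31 to 34 in males, 0 to 7 and 3 to 10 for RAR against high dose in females and males, and 0 and 15 to 22 for RAR against low dose. The 9 and the 8 in females came without female control 2, the 1 without male low dose 3, the 8 in males without male control 2 or male high dose 3, and the 2 without male low dose 1.

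Replicate numbers do not pair the samples: same-numbered arrays correlated with a median of -0.03, and 8 of 24 correlated best with their own number. With the replicate number as a block the counts were 5, 4 and 13 in females and 2, 5 and 17 in males.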
